A study of Mus musculus with 20 samples.

Results

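The heat shock and DNAJ chaperone genes were compared in the knee joints of 20 mice with surgical osteoarthritis. They were every row of the deposited gene table whose symbol is Hspa, Hspb, Hspd, Hspe, Hsph, Dnaja, Dnajb or Dnajc followed by a number, or begins with Hsp90, which gave 67 of 14793 genes. All 67 were annotated as protein coding, and none was at 0 in any joint. All mice were male C57BL/6Nci and had destabilization of the medial meniscus (DMM) surgery in the right knee, so that the controls carried the same injury as the treated joints. They were 12 weeks old when operated and therefore older when the tissue was taken. Control joints (labelled CTRL) received a needle insertion alone. The other joints received mesenchymal stromal cells from adipose tissue in weeks 3 and 5 after surgery, either non-activated (MSC), activated with the TLR3 agonist pIC (TLR3-MSC, labelled TLR) or activated with the STING agonist 2′,3′-cGAMP (STING-MSC, labelled STING). The cells were given in phosphate buffered saline, and no injection of saline alone is described. The cells and the fluid therefore cannot be told apart in the comparisons with control. There were 5 joints per group, each from a different mouse. The injected cells came from a single pool of age-matched male donors, so variation between donors is not part of the spread given here. The study's text gives the tissue collection both as the end of the study and as a day after injection, so the interval between injection and measurement is not settled by it.

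Heat shock proteins are chaperones, which hold unfolded proteins and help them to fold, assemble or be degraded. Hsp70 proteins (Hspa genes) bind and release clients in a cycle driven by ATP, J-domain proteins (Dnaj genes) deliver clients and start that cycle, Hsp110 proteins such as Hsph1 reset it, and Hsp90 proteins take over late folding steps. Small heat shock proteins (Hspb genes) hold unfolding proteins without ATP and are abundant in muscle. Some members are made at all times, whereas others are induced by heat, unfolded protein or injury through the transcription factor HSF1, and those of the endoplasmic reticulum (ER) are induced through the unfolded protein response.

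The values are read counts per gene divided by a size factor for each joint, called normalised read counts here. The libraries held from 27955496 to 52529972 reads on the listed genes. MSC replicate 5 had 296 genes at 0, of which 239 were at 0 in that joint only, and no chaperone gene was among them. The joints were taken whole, and skeletal muscle markers were measured at high levels in each of them, with sums of 10 genes from 958543 to 3931340. Markers of cartilage, bone, synovial fibroblasts, macrophages, neutrophils and erythroid cells were also above 0 in every joint, and 5 of 6 epidermal markers were at 0 in at least 1 joint. In such bulk tissue, fewer cells of a type and less RNA per cell cannot be told apart.

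Per kilobase of exon, Hsp90ab1, the constitutive cytosolic Hsp90, had the highest level of the 67 genes, with a mean over 20 joints of 8867 normalised read counts per kilobase. On this scale it was followed by Hspb8, a small heat shock protein of muscle, at 3287. Next were Hspa5, the ER Hsp70 also called BiP, at 3017, and Hspa8, the constitutive cytosolic Hsp70, at 2528. The inducible Hsp70 genes stood far lower on the same scale, Hspa1b at 191 and Hspa1a at 73.1. The lowest level per kilobase was that of Dnajc24, at 12.9. The lowest normalised read count was that of Hspb9, known from testis, with a mean of 14.3. Exon length covered all annotated exons of a gene, with 2252 bases for Hspb8, 5554 for Hspa5, 8680 for Hspa8 and 21791 for Dnajc24. The order per kilobase therefore depends on the annotation. By mean normalised read count, Hspa8 (21942) and Hspa5 (16757.5) stood above Hspb8 (7402), and Hsp90ab1 (47888) was again the highest.

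The genes were described in 5 lists. The stress-inducible list held Hspa1a, Hspa1b, Hsph1, Hsp90aa1, Dnaja1, Dnajb1 and Hspb1. The constitutive list held 11 cytosolic and nuclear genes, among them Hspa8, Hspa4 and Hsp90ab1. The ER list had 8 genes, the mitochondrial list 9 and the small heat shock protein list 6, including Hspb1 once more, and 27 genes were in no list.

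The stretches of 150 bases before the start of transcription are shown for 4 genes that held a heat shock motif and had an unadjusted limma p of at most 0.05 in a comparison. Those of the ER chaperones Hspa5 and Hsp90b1 are shown as the contrast.
They were taken from RefSeq (GRCm38.p6), are written 5′ to 3′ on the strand of the gene, and are followed downstream by the start.
Capitals mark the motif found, which is GAANNTTC, a pair of facing heat shock element units, in Hspa1a, Hspa1b and Dnaja1, the longer GAANNTTCNNGAA in Hspe1 (where matches on either strand overlap), and the ER stress response element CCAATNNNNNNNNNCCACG, on either strand, in Hspa5 and Hsp90b1.
Hspa1a, chr17:34972157-34972306, minus strand: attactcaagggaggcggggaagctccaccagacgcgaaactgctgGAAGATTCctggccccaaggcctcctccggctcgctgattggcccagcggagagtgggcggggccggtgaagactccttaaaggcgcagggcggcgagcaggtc
Hspa1b, chr17:34959239-34959388, minus strand: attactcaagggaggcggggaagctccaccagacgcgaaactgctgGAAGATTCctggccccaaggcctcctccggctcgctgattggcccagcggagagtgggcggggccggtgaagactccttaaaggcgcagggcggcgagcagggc
Dnaja1, chr4:40722318-40722467, plus strand: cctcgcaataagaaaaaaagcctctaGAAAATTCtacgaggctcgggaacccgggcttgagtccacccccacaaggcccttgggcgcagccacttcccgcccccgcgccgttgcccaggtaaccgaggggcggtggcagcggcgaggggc
Hspe1, chr1:55087998-55088147, plus strand: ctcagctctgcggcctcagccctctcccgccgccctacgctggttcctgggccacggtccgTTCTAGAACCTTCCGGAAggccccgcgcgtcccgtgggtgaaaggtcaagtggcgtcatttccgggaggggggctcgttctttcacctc
Hspa5, chr2:34771940-34772089, plus strand: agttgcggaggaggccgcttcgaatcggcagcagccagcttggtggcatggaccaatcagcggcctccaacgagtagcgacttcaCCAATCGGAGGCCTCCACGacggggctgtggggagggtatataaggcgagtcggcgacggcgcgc
Hsp90b1, chr10:86705445-86705594, minus strand: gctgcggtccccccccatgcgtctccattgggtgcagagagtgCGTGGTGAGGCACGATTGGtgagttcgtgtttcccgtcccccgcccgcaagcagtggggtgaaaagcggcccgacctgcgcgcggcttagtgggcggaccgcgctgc

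The shown stretches of Hspa1a and Hspa1b are nearly the same, and over the whole window of 300 bases (250 before and 50 after the start) the promoters differed at 4 positions. Of the 67 genes, 55 had a promoter in this table. Searched on both strands of that window, GAANNTTC was present for 13 of the 55 genes. Counted by promoter, it was in 15 of their 72 promoters and in 7.86% of all 32851 promoters. The 13 genes were Dnaja1, Dnaja4, Dnajb6, Dnajc27, Hspa1a, Hspa1b, Hspb1, Hspb3, Hspb6, Hspb8, Hspd1, Hspe1 and Hsph1. Dnajb1, Hspa8, Dnajc10, Dnajb12, Dnajb14 and Dnajc30 also had an unadjusted limma p of at most 0.05 in a comparison and were not among the 13. Whether each of these lacked the motif or lacked a promoter was not separated. The longer GAANNTTCNNGAA, which contains the shorter motif, was present for Dnajb6, Hspd1, Hspe1 and Hsph1, in 6 of the 72 promoters and in 0.603% of all promoters. The ER stress response element was present for Hspa5, Hsp90b1 and Dnajc3, all of them ER chaperones, in 3 of the 72 promoters and in 0.119% of all promoters. A match describes these letters in this window and is not evidence of binding.

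The comparison of MSC with control joints addressed what injection of non-activated cells, together with the saline that carried them, was followed by in the injured joint. The stress-inducible genes Hspa1a, Hspa1b, Dnaja1 and Dnajb1 and the constitutive Hspa8 had higher levels in MSC joints, with log2 fold changes of 0.31 to 1.13, but none passed a false discovery rate (FDR) of 0.05 over all 14793 genes in limma. At an unadjusted limma p of at most 0.05, 8 of the 67 genes differed, 6 higher and 2 lower in MSC joints, against 8.55% of all genes called at that threshold, 5.64% higher and 2.91% lower. The higher genes were Dnaja1, Hspa8, Hspa1a, Hspa1b, Dnajb1 and Hspe1, and the lower were Dnajc10 and Dnajb12. At the FDR threshold 0 of the 67 genes and 0.00676% of all genes were called by limma, edgeR called 0 of the 67 and 0.101% of all genes, and DESeq2 called 2, Dnaja1 (FDR = 0.0386) and Hspa1a (FDR = 0.0493), with 0.827% of the 13055 genes for which it gave an FDR. Of the stress-inducible list, 4 of 7 genes were among the 8, with a median log2 fold change of 0.46 over the list, whereas of the constitutive list 1 of 11 was, with a median of 0.00023, beside a median of -0.036 over all genes. The lists were drawn up with earlier results of these data known, so their contrast is a description and not a test. Log2 fold changes are differences of mean log2(normalised read count + 1), which understates those of genes with few reads.

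Dnaja1, a J-domain protein of class A that works with cytosolic Hsp70, had the smallest p of the 67 genes. Its normalised read counts were 2191, 1986, 2256, 2249 and 1874 in control joints, 2486, 2459, 4357, 3392 and 2508 in MSC joints, 2236, 2234, 2189, 2039 and 2673 in TLR3-MSC joints and 2379.9, 2110.0, 2325, 2436 and 1951 in STING-MSC joints. All 5 MSC joints were above all 5 control joints, MSC replicates 3 and 4 stood clearly above the other 3 MSC joints, and 1 TLR3-MSC joint and 3 STING-MSC joints also lay above all controls. The means were 3040.4 ± 834 in MSC and 2111 ± 172 in control joints (SD, n = 5 each). The limma fit of MSC against control gave log2 fold change 0.49, SE 0.13, FDR = 0.249, exact permutation p = 0.00794, where the exact test is two-sided over all splits of 5 joints against 5 and cannot give a smaller p than this one. Only Dnaja1 and Hspa8 of the 67 genes had groups that did not overlap in this comparison, against 1.11% of all genes.

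**Figure D1:**
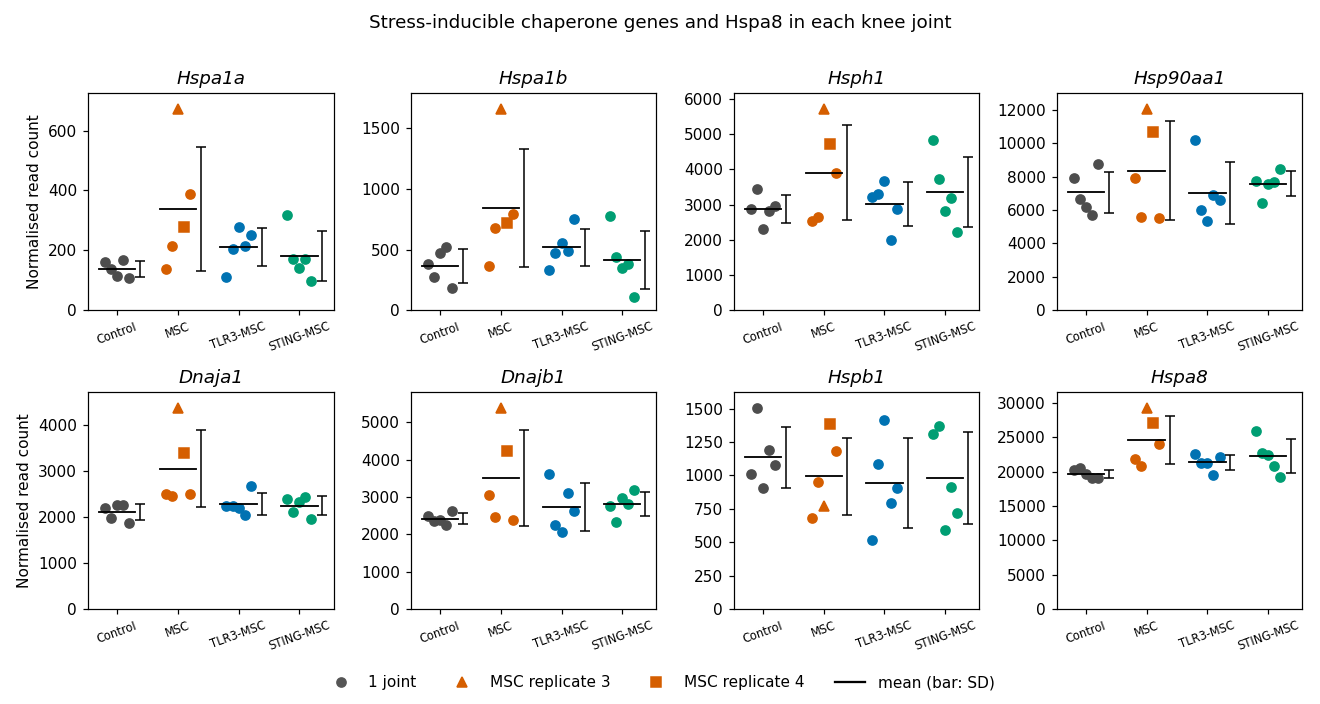
Normalised read counts of the 7 stress-inducible genes and of Hspa8 in each joint, by group, on linear axes from 0, with the horizontal line at the group mean and the bar giving the SD (n = 5). MSC replicate 3 (triangle) is the highest of all 20 joints for 6 of the 7 inducible genes and for Hspa8, and MSC replicate 4 (square) is next for Hsp90aa1, Dnaja1, Dnajb1 and Hspa8. For Hspb1, MSC replicate 3 (772) is below all controls, and MSC replicate 4 (1381) is the highest MSC joint and within the control range.

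Hspa1a (chr17:35188166-35191133, GRCm39) and Hspa1b (chr17:35175412-35178215) encode nearly the same inducible Hsp70. Hspa1a had normalised read counts of 159.8, 139, 113, 167 and 107 in control joints, 137, 215, 672, 279 and 389 in MSC joints, 112, 205, 278, 214 and 251 in TLR3-MSC joints and 319, 172, 142, 169.9 and 95.9 in STING-MSC joints. MSC replicate 3 was the highest of the 20 joints, MSC replicate 1 lay within the controls, and the other 4 MSC joints lay above every control joint. The Hspa1a values gave log2 fold change 1.11, SE 0.36, FDR = 0.33, exact permutation p = 0.0317 for MSC against control.

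Hspa1b had normalised read counts of 382, 271, 471, 519 and 181 in control joints, 363, 676, 1659, 723 and 789.9 in MSC joints, 329, 468, 555, 491 and 750.5 in TLR3-MSC joints and 774, 439, 351, 381 and 111 in STING-MSC joints. The same 4 MSC joints lay above all controls, and the lowest value of the 20 was in STING-MSC replicate 5. For Hspa1b, MSC against control gave log2 fold change 1.13, SE 0.44, FDR = 0.444, exact permutation p = 0.0317. Without MSC replicate 3 (log2 fold change 0.84) or control replicate 5 (log2 fold change 0.90) the limma p passed above 0.05. Of the windows of 150 bases in the Hspa1a transcript, 38.1% also occur in Hspa1b, and 40.5% the other way, so that counting may have split or dropped reads between both genes. Their summed counts gave log2 fold change 1.11, SE 0.40, FDR = 0.383, exact permutation p = 0.0317 for the same comparison.

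Dnajb1, the class B J-domain protein also called Hsp40, had normalised read counts of 2501, 2367, 2396, 2241 and 2617 in control joints, 3055, 2475, 5379, 4243 and 2385 in MSC joints, 3612, 2256, 2065, 3114 and 2619 in TLR3-MSC joints and 2764, 2341, 2988, 2812 and 3195 in STING-MSC joints. MSC replicates 3 and 4 were the highest 2 of the 20 joints, MSC replicate 5 lay within the controls, as did MSC replicate 2, and MSC replicate 1 lay above all controls. It gave log2 fold change 0.46, SE 0.19, FDR = 0.483, exact permutation p = 0.0873 for MSC against control. Without MSC replicate 3 (log2 fold change 0.29) or MSC replicate 4 (log2 fold change 0.37) it no longer met the unadjusted threshold.

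The other 3 inducible genes did not pass the unadjusted threshold in any comparison. Hsph1, the inducible Hsp110 that resets the Hsp70 cycle, had normalised read counts of 2862, 3437, 2302, 2829 and 2969 in control joints, 2531, 2659, 5715, 4731 and 3909.6 in MSC joints, 3229.7, 3308, 3675, 2006 and 2886 in TLR3-MSC joints and 4850.2, 3736, 2826, 3181 and 2218 in STING-MSC joints. The MSC joints spanned from within the control range to well above it, with a mean of 3909 ± 1360.0 against 2880.1 ± 405 in controls (SD, n = 5 each). Its MSC against control result was log2 fold change 0.38, SE 0.23, FDR = 0.664, exact permutation p = 0.167, and it passed the unadjusted threshold without MSC replicate 1 (log2 fold change 0.52) or MSC replicate 2 (log2 fold change 0.50).

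Hsp90aa1, the inducible cytosolic Hsp90, had normalised read counts of 7926, 6685, 6192, 5720.0 and 8740.3 in control joints, 7939, 5595, 12043, 10674 and 5492 in MSC joints, 10178, 6010.5, 5336, 6915 and 6607 in TLR3-MSC joints and 7762, 6442, 7563, 7694 and 8453 in STING-MSC joints. MSC replicates 3 and 4 were the highest 2 joints, while MSC replicates 2 and 5 were below all controls, so that the MSC joints spread to both sides of the controls. The MSC against control result was log2 fold change 0.19, SE 0.21, FDR = 0.785, exact permutation p = 0.476, and without MSC replicates 3 and 4 the log2 fold change was -0.16. Hspb1, the small heat shock protein also known as Hsp27, had normalised read counts of 1013, 1503, 905, 1187 and 1077 in control joints, 679.6, 954, 772, 1381 and 1182 in MSC joints, 515, 1083, 1414, 795 and 909 in TLR3-MSC joints and 1309, 1369, 592, 913 and 719.5 in STING-MSC joints. All groups overlapped for Hspb1, and its MSC against control value was below 0 with all joints (log2 fold change -0.22, SE 0.27, FDR = 0.808, exact permutation p = 0.349).

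MSC replicates 3 and 4 had the highest levels of the inducible genes as a list. After taking each gene relative to its mean over the 20 joints, the median over the 7 inducible genes was 0.88 on the log2 scale in MSC replicate 3, 0.55 in replicate 4, 0.28 in replicate 5, -0.028 in replicate 2 and -0.33 in replicate 1. In controls it lay between -0.24 and -0.098, in TLR3-MSC joints between -0.091 and 0.21, and in STING-MSC joints between -0.43 and 0.43. With both MSC replicates 3 and 4 removed, a choice made after the data were seen, 4 of the 67 genes passed the unadjusted threshold against control beside 5.67% of all genes, namely Dnaja1 (log2 fold change 0.24), which was higher, and Dnajb12, Dnajc11 and Hspa1l, which were lower. Hspa1a then had a log2 fold change of 0.73, Hspa1b of 0.76, Hspa8 of 0.18 and Dnajb1 of 0.11, and none of these 4 passed the unadjusted threshold. Leaving out the joints with the highest inducible levels was bound to lower most of these values, and fewer MSC joints remained. The fit shows how far the values rested on these joints and is not a test of the difference from control. With any 1 joint left out, Dnaja1, Hspa1a and Hspa8 kept an unadjusted p of at most 0.05 in all 10 fits of MSC against control. Of 6 neutrophil markers, 4 were also higher in MSC than in control joints at the unadjusted threshold, against 5.64% of all genes. Their sums were 525648 to 894186 in MSC and 368777 to 654339 in control joints, with none at 0, and their part in the chaperone levels was not tested.

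The TLR3-MSC and STING-MSC groups were each compared with control joints, which are the same 5 joints as above. No chaperone gene differed between TLR3-MSC and control joints at the unadjusted threshold (0 of 67 in limma, against 3.58% of all genes). The 3 smallest p were those of Hspb7, Hspa1a and Dnajb14. Hspa1a gave log2 fold change 0.58, SE 0.36, FDR = 1, exact permutation p = 0.0635 with 4 of 5 TLR3-MSC joints above all controls, and it met the unadjusted threshold without TLR3-MSC replicate 1 (log2 fold change 0.80). Between STING-MSC and control joints 1 of 67 genes differed, Dnajc10, which was lower, against 12.2% of all genes in either direction and 5.69% on the lower side. At the FDR threshold limma, edgeR and DESeq2 each called 0 of the 67 genes in both comparisons, and of all genes DESeq2 called 0.0203% for TLR3-MSC and 0.576% for STING-MSC against control and the other tools 0. No chaperone gene had TLR3-MSC and control joints that did not overlap, against 0.825% of all genes. Of the stress-inducible list, 0 of 7 genes passed the unadjusted threshold in either comparison, with medians of 0.11 for TLR3-MSC and 0.12 for STING-MSC against control. The neutrophil list had 4 of 6 genes higher in STING-MSC than in control joints at the unadjusted threshold, beside 967 of all 14793 genes. Its sums were 525684 to 815325 in STING-MSC joints, and its part in the chaperone levels was not tested.

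**Figure D2:**
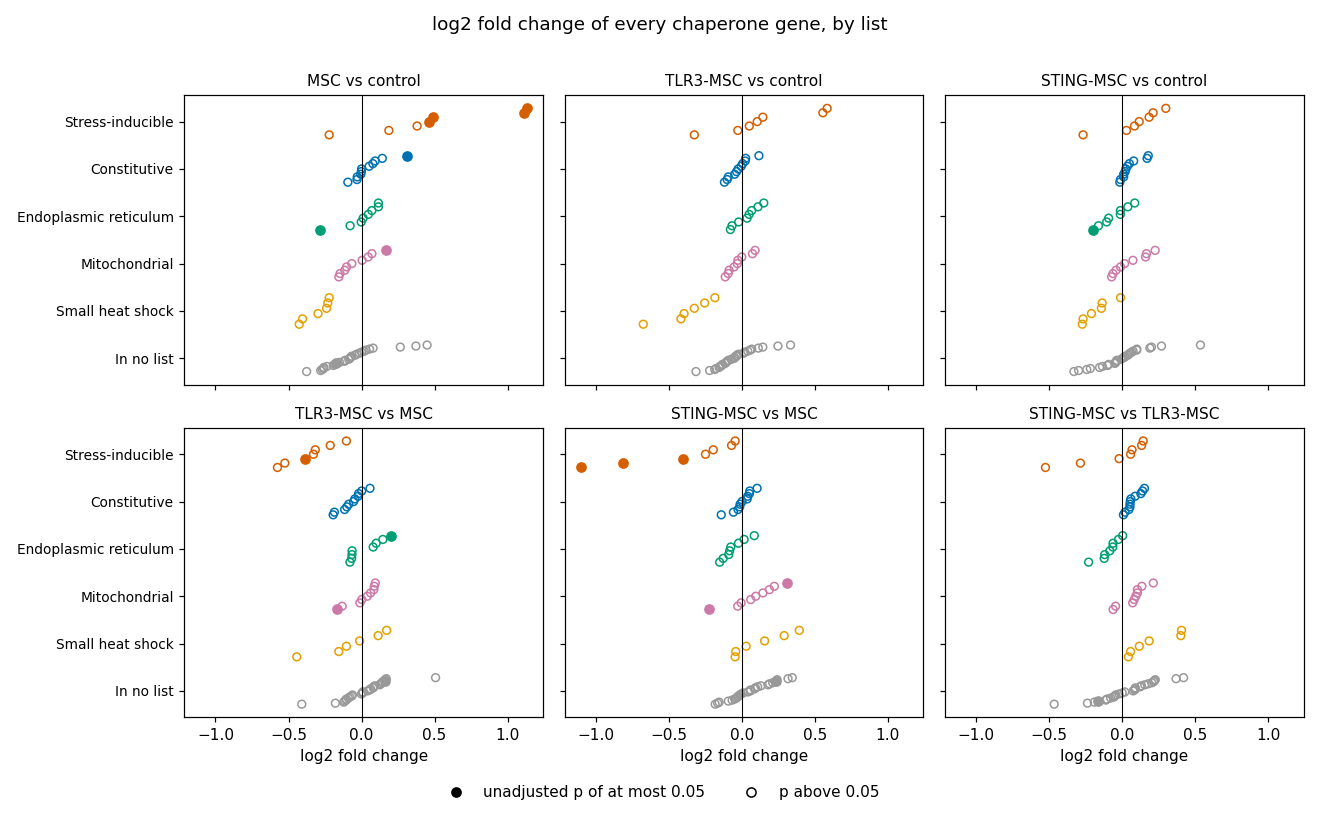
Log2 fold change (difference of mean log2 normalised read counts plus 1) of each of the 67 chaperone genes in the 6 comparisons, by list, with filled points for an unadjusted limma p of at most 0.05. Hspb1 is drawn in both of its lists. The filled points furthest from 0 are Hspa1a and Hspa1b, higher in MSC than in control joints and lower in STING-MSC than in MSC joints, and the constitutive genes stay within 0.31 of 0 in every comparison.

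Activated cells were then compared with non-activated ones. Between STING-MSC and MSC joints 6 of 67 genes passed the unadjusted threshold, 2 higher and 4 lower, against 4.94% of all genes, 2.77% higher and 2.17% lower. The lower ones were Dnaja1, Hspa1a, Hspa1b and Hspe1, and the higher ones were Dnajb12 and Dnajc30. Dnaja1 gave log2 fold change -0.41, SE 0.13, FDR = 0.824, exact permutation p = 0.00794, and all 5 STING-MSC joints lay below all MSC joints, the only one of the 67 genes without overlap between these groups beside 1.05% of all genes. Hspa1b gave log2 fold change -1.10, SE 0.44, FDR = 0.922, exact permutation p = 0.111, and lost the call without MSC replicate 3 (log2 fold change -0.81) or STING-MSC replicate 5 (log2 fold change -0.69). Hspa1a gave log2 fold change -0.81, SE 0.36, FDR = 0.938, exact permutation p = 0.135, and the call was lost in 6 of the 10 fits that left out 1 joint, with log2 fold changes of -1.08 to -0.51, the nearest to 0 without MSC replicate 3 and the calls lost also without MSC replicate 5 and STING-MSC replicates 2, 3, 4 and 5. All 7 inducible genes were on the lower side, where 44.5% of all genes lay, 3 of them past the threshold, with a list median of -0.25 beside 0.022 over all genes. Also lower were 6 of 8 ER, 5 of 11 constitutive, 3 of 9 mitochondrial and 2 of 6 small heat shock genes. Of the lists described further below, 17 of 17 unfolded protein response, 8 of 8 immediate-early, 15 of 22 heat shock factor and co-chaperone and 1 of 8 CCT chaperonin genes were lower. The lower side was thus not particular to the inducible list. With both MSC replicates 3 and 4 removed, Dnaja1 had a log2 fold change of -0.15, Hspa1a of -0.44 and Hspa1b of -0.73, and none of the 3 passed the unadjusted threshold. The other 4 inducible genes turned to the higher side in that fit, Hsp90aa1 with 0.27, Hsph1 with 0.13, Dnajb1 with 0.097 and Hspb1 with 0.024, so the common direction of the 7 genes was not kept without these joints. MSC replicates 3 and 4 had the highest inducible levels, so leaving them out was bound to raise most of these values. The fit shows how far the direction rested on these joints and is not a test of it. The 4 of 67 genes that did pass then were Hspe1, which was lower, and Dnajb12, Dnajc11 and Dnajc30, which were higher, against 11.2% of all genes.

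Between TLR3-MSC and MSC joints 4 of 67 genes passed the unadjusted threshold, 2 higher and 2 lower, against 3.88% of all genes, 1.89% higher and 1.99% lower. Dnaja1 was lower (log2 fold change -0.39, SE 0.13, FDR = 0.978, exact permutation p = 0.0317), as was Hspe1, and Dnajc10 and Dnajb14 were higher. All 7 inducible genes were again on the lower side of MSC, as were 42.6% of all genes, with a median of -0.33, and 1 of them, Dnaja1, was past the threshold. Also lower were 9 of 11 constitutive, 4 of 8 ER, 3 of 9 mitochondrial and 4 of 6 small heat shock genes. Of the lists described further below, 14 of 17 unfolded protein response, 8 of 8 CCT chaperonin, 7 of 8 immediate-early and 14 of 22 heat shock factor and co-chaperone genes were lower. The common direction of the 7 inducible genes was not kept without MSC replicates 3 and 4, where Hsp90aa1 had 0.13 and Dnajb1 0.029, Hsph1 (-0.0069) and Hspb1 (-0.034) were near 0, and Dnaja1 had -0.13. That fit likewise leaves out the joints with the highest inducible levels and is not a test of the direction. Without both MSC replicates 3 and 4, 0 of the 67 genes passed beside 2.54% of all genes, and the count was 8 without MSC replicate 2, 2 without MSC replicate 3, MSC replicate 5 or TLR3-MSC replicate 5, and 1 without MSC replicate 4. Between STING-MSC and TLR3-MSC joints 1 of 67 genes passed, Dnajb14, which was lower, against 2.57% of all genes in either direction and 1.78% on the lower side, and 0 of 7 inducible genes did. No chaperone gene was without overlap between TLR3-MSC and MSC joints (against 0.581% of all genes) or between STING-MSC and TLR3-MSC joints (against 1.35%). None of the 67 genes passed the FDR threshold in these 3 comparisons in limma, edgeR or DESeq2. Of all genes, limma called 0, edgeR 0.00676% for TLR3-MSC against MSC and 0 in the others, and DESeq2 0.0474% there, 0.19% for STING-MSC against MSC and 0.0136% for STING-MSC against TLR3-MSC. All comparisons with MSC share the same 5 MSC joints. A limma F-test of any difference among the 4 groups called 0 of 67 genes and 0 of all genes at an FDR of 0.05, and at the unadjusted threshold it called 6 of the 67, Dnaja1 (FDR = 0.597), Dnajc10, Hspa8, Hspa1a, Hspe1 and Dnajb12, against 6.42% of all genes.

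The constitutive cytosolic and nuclear chaperones differed little, with Hspa8 as the exception. Hspa8, the constitutive Hsp70 that also strips clathrin from vesicles, had normalised read counts of 20148, 20448, 19575, 19019.5 and 19054 in control joints, 21820.3, 20808, 29197, 27029 and 24023 in MSC joints, 22520.4, 21289, 21185, 19563 and 22076 in TLR3-MSC joints and 25861, 22681, 22465, 20818 and 19256 in STING-MSC joints. All 5 MSC joints lay above all control joints, although the lowest of them was close to the highest control, and MSC replicates 3 and 4 were again the highest 2 of the 20. MSC against control gave log2 fold change 0.31, SE 0.097, FDR = 0.319, exact permutation p = 0.00794. In TLR3-MSC and STING-MSC joints, 4 of 5 values each lay above all controls, which gave log2 fold change 0.12, SE 0.097, FDR = 1, exact permutation p = 0.0317 for TLR3-MSC against control. STING-MSC against control gave log2 fold change 0.17, SE 0.097, FDR = 0.495, exact permutation p = 0.0397. The STING-MSC value passed the unadjusted threshold without STING-MSC replicate 5 (log2 fold change 0.22).

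Hsp90ab1 ranged from 41505 to 53976 normalised read counts over the 20 joints, and its mean was 48719.7 ± 2665 in control, 48896 ± 5228 in MSC, 45474 ± 3052 in TLR3-MSC and 48463 ± 4777 in STING-MSC joints (SD, n = 5 each). All groups overlapped, and the log2 fold change of MSC against control was 0.00023 with an SE of 0.10. Hspa4, an Hsp110 protein made at all times, spanned only 5383 to 6278 counts over all joints. Over the 11 genes, log2 fold changes lay between -0.094 and 0.31 when MSC joints were compared with control, -0.12 and 0.12 with TLR3-MSC and -0.016 and 0.18 with STING-MSC joints, and apart from Hspa8 in the first of these none passed the unadjusted threshold. The median of the list in single joints, relative to the mean of each gene, lay between -0.15 and 0.20 on the log2 scale, and all 11 genes were above their mean in MSC replicate 4 and none in MSC replicate 2.

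**Figure D3:**
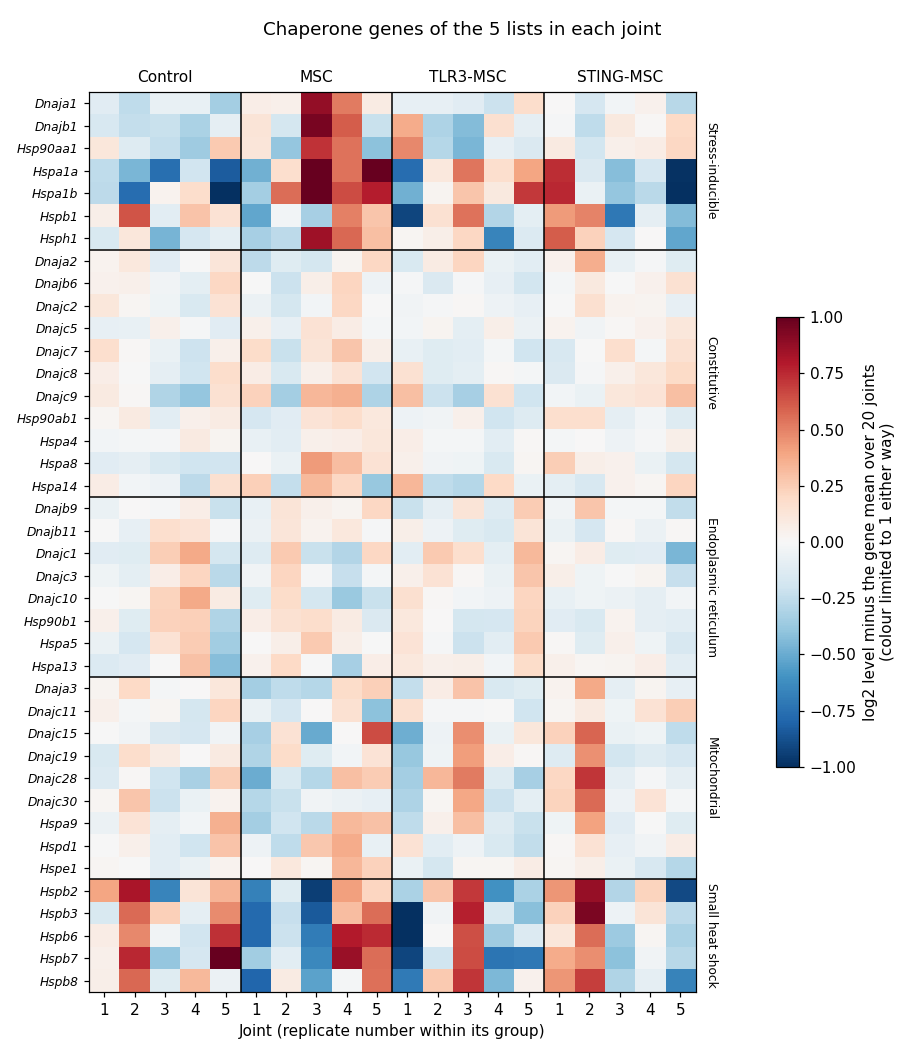
Log2(normalised read count + 1) minus its mean over 20 joints for the genes of the 5 lists (rows) in each joint (columns), with red above and blue below the mean and the colour limited to 1 either way. Hspb1 is shown once, with the inducible genes. The inducible rows are reddest in MSC replicates 3 and 4, and the constitutive and ER rows are pale throughout. Most small heat shock rows change together from joint to joint, but not in every joint. In control replicate 5, Hspb7 is at its highest of the 20 joints while Hspb8 is slightly below its mean over them.

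In the ER list, 1 gene passed the unadjusted limma threshold against control, Dnajc10, a J-domain protein that reduces disulfide bonds of misfolded proteins. Dnajb12, an ER membrane protein placed in no list, also passed it in MSC joints and is described further below. Dnajc10 had normalised read counts of 3553, 3600.2, 4151, 4619 and 3768 in control joints, 3263, 4031, 3151, 2743 and 3051 in MSC joints, 3969, 3589, 3488, 3425 and 4138 in TLR3-MSC joints and 3378, 3459, 3412, 3347 and 3492 in STING-MSC joints. MSC replicate 2 lay within the controls and the other 4 MSC joints below all of them, and all 5 STING-MSC joints lay below all 5 controls in a narrow range, the only one of the 67 genes without overlap in that comparison, against 2.17% of all genes. MSC against control gave log2 fold change -0.28, SE 0.092, FDR = 0.33, exact permutation p = 0.0397, and it kept an unadjusted limma p of at most 0.05 in every fit that left out 1 joint (log2 fold changes of -0.36 to -0.22). STING-MSC against control gave log2 fold change -0.20, SE 0.092, FDR = 0.4, exact permutation p = 0.00794, and that limma call was lost in 7 of 10 fits that left out 1 joint (log2 fold changes of -0.23 to -0.14). TLR3-MSC joints were higher than MSC joints (log2 fold change 0.20, SE 0.092, FDR = 0.978, exact permutation p = 0.103), a call lost in 6 of 10 such fits (log2 fold changes of 0.15 to 0.29).

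Hspa5, the ER Hsp70 BiP and the usual marker of the unfolded protein response, had normalised read counts of 15876, 14831, 18408, 19819 and 13074 in control joints, 16700.2, 17383, 19994, 17344 and 16642 in MSC joints, 18296, 16496, 14338, 15453 and 19961 in TLR3-MSC joints and 16786, 15354, 17287, 16176 and 14931 in STING-MSC joints. All groups overlapped, MSC replicate 3 stood above the other MSC joints, and control replicate 4 and TLR3-MSC replicate 5 were nearly as high. Against control joints its log2 fold change was 0.12 in MSC, 0.05 in TLR3-MSC and -0.012 in STING-MSC joints, each with an SE of 0.11. Hsp90b1, the ER Hsp90 called GRP94, ranged from 5797 to 8443 counts, with log2 fold changes of 0.046, -0.022 and -0.11 in the same order. Of the 8 genes in the ER list, which leaves out Dnajb12 and Dnajb14, 1 passed the unadjusted threshold against control in MSC and in STING-MSC joints, Dnajc10 both times, and 0 in TLR3-MSC joints, with list medians of 0.029, -0.052 and 0.043 respectively. In MSC against control joints, where 4 of the 7 inducible genes were higher, the Hspa5 value was about as large as its SE. The unfolded protein response genes described further below had a median of 0.084 there, with 11 of 17 above 0. The difference between these lists was not tested.

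The mitochondrial chaperones included Hspd1 (Hsp60) and Hspe1 (Hsp10), which form the folding chamber of the matrix. Hspe1 had normalised read counts of 2216, 2176, 2031, 2084 and 2233 in control joints, 2191, 2349, 2214, 2754 and 2566 in MSC joints, 2089, 1938, 2212, 2211 and 2296 in TLR3-MSC joints and 2215, 2273, 2083, 1958 and 1788 in STING-MSC joints. MSC replicates 2, 4 and 5 lay above all controls, and STING-MSC replicates 4 and 5 lay below them. Hspe1 was higher in MSC than in control joints (log2 fold change 0.16, SE 0.077, FDR = 0.577, exact permutation p = 0.0556), a call lost in 7 of 10 fits that left out 1 joint (log2 fold changes of 0.12 to 0.20). It was lower in STING-MSC than in MSC joints (log2 fold change -0.23, SE 0.077, FDR = 0.84, exact permutation p = 0.0476), a call kept in every such fit, and lower in TLR3-MSC than in MSC joints (log2 fold change -0.16, SE 0.077, FDR = 0.978, exact permutation p = 0.0635), a call lost in 7 of 10 fits.

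Hspd1 (chr1:55116994-55127403, minus strand, GRCm39) starts head to head with Hspe1 (chr1:55127291-55130467, plus strand), and the deposited intervals overlap at their starts, where reads cannot be told apart if counting did not use strand. Hspd1 ranged from 4387 to 6773 normalised read counts, with MSC replicate 4 highest and MSC replicate 2 lowest, and its log2 fold change of MSC against control was 0.045 with an SE of 0.11. The Hspd1 and Hspe1 values of MSC against control both lay above 0, while only Hspe1 passed the unadjusted threshold; the difference between them was not tested. Dnajc30, a mitochondrial J-domain protein linked to respiratory complex I, had values of 146, 152, 174, 171 and 168 in MSC and 208, 264, 172, 196 and 176 in STING-MSC joints. STING-MSC replicate 3 lay within the MSC range and the other 4 above it, which gave log2 fold change 0.31, SE 0.14, FDR = 0.938, exact permutation p = 0.0159, a call lost in 6 of 10 fits that left out 1 joint. The other 7 mitochondrial genes, Hspd1 included, passed the unadjusted threshold in no comparison.

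None of the 6 small heat shock protein genes passed the unadjusted threshold in any of the 6 comparisons. All 6 had negative log2 fold changes against control in MSC, TLR3-MSC and STING-MSC joints, with medians of -0.27, -0.36 and -0.18, where 57.7%, 52.1% and 48.3% of all genes were below 0 and the 3 comparisons share their control joints. Hspb7, a small heat shock protein of heart and skeletal muscle, came closest, with values of 4704, 7644, 3469.7, 4032 and 10652 in control joints, 3562, 4224, 2902, 8244 and 6679 in MSC joints, 2403, 3959.8, 7151, 2738 and 2772 in TLR3-MSC joints and 5873, 6276, 3411, 4419 and 3747 in STING-MSC joints. TLR3-MSC against control gave log2 fold change -0.67, SE 0.35, FDR = 1, exact permutation p = 0.159, and it met the unadjusted threshold without TLR3-MSC replicate 3 (log2 fold change -0.93), control replicate 3 (log2 fold change -0.85) or control replicate 4 (log2 fold change -0.79). The highest joint was control replicate 5 and the lowest TLR3-MSC replicate 1, and both groups overlapped.

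The small heat shock genes followed the skeletal muscle markers of the same joint. After group means were subtracted, each was correlated over the 20 joints with the mean log2 level of 10 muscle markers, and Hspb3, a partner of Hspb2 in muscle, was closest (r = 0.965, adjusted p = 5.33e-05, rho = 0.932, adjusted p = 4.00e-05, permutation tests). Hspb6, also called Hsp20, had r = 0.956, adjusted p = 5.33e-05, rho = 0.926, adjusted p = 4.00e-05 by the same permutation tests. For Hspb1, Hspb2, Hspb7 and Hspb8 r lay between 0.823 and 0.886 and rho between 0.859 and 0.901, all with an adjusted permutation p of at most 0.000206. The raw p of r for the 6 genes lay between 1e-05, the smallest that 100000 permutations can give, and 4e-05. Without the 2 joints farthest from the median of the muscle markers (MSC replicate 5 and TLR3-MSC replicate 3), r lay between 0.801 and 0.949. No muscle marker passed the unadjusted threshold in any comparison, and the sums were 1838940 to 2634620 in control, 958543 to 3049820 in MSC, 1236930 to 3280610 in TLR3-MSC and 1562400 to 3931340 in STING-MSC joints. MSC replicate 3, the joint with the highest inducible levels, had a muscle sum of 1143830, below all control joints, and MSC replicate 4 had 2147470, within them. The other chaperones were not set against the muscle markers, so the relation is not shown to be particular to the small heat shock genes. The mitochondrial list had its lowest joint median in MSC replicate 1 (-0.30), which had the lowest muscle sum. Its highest was in STING-MSC replicate 2 (0.40), which had the highest muscle sum.

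Of the 16 relations tested over joints, 9 set other chaperones against Hspa1a and 1 set the immediate-early genes against it. Hspa1b followed Hspa1a (r = 0.851, adjusted p = 0.000251, rho = 0.800, adjusted p = 0.000206, permutation tests), also without MSC replicates 1 and 3, the joints farthest from its median (r = 0.791), and the part of shared reads in it was not tested. Hsph1 did so less closely (r = 0.703, adjusted p = 0.0137, rho = 0.532, adjusted p = 0.072, permutation tests), with r = 0.549 without these joints. Hspa8 (r = 0.658, adjusted p = 0.0336, rho = 0.409, adjusted p = 0.172, permutation tests) and Hsp90ab1 (r = 0.627, adjusted p = 0.0336, rho = 0.592, adjusted p = 0.0467, permutation tests) had positive values, and after quantile normalization r was 0.380 for Hspa8 and 0.437 for Hsp90ab1. Dnaja1 had r = 0.616, adjusted p = 0.047, rho = 0.412, adjusted p = 0.172 (permutation tests), but r = 0.321 without MSC replicates 1 and 3, so that the relation rested on these joints. Hsp90aa1 (r = -0.0547, rho = -0.162) and Dnajb1 (r = 0.0452, rho = -0.165) showed no relation with Hspa1a that the permutation tests detected (adjusted p of 0.9 for r and 0.563 for rho for either gene). Without MSC replicates 1 and 3, r was -0.405 for Hsp90aa1 and -0.436 for Dnajb1, so that both values depended on these joints. TLR3-MSC replicate 1 had low Hspa1a and high values of both genes, with the third-highest Hsp90aa1 and the third-highest Dnajb1 of the 20 joints and the third-lowest Hspa1a. Hspb1 (r = 0.513, adjusted p = 0.056, rho = 0.532, adjusted p = 0.0599), Hspa5 (r = 0.236, adjusted p = 0.273, rho = 0.140, adjusted p = 0.563) and the mean of the immediate-early genes (r = 0.421, adjusted p = 0.151, rho = 0.392, adjusted p = 0.172) did not pass the adjusted permutation tests. Without MSC replicates 1 and 3, r was 0.679 for Hspb1, 0.0711 for Hspa5, 0.295 for the immediate-early genes, 0.475 for Hspa8 and 0.511 for Hsp90ab1.

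**Figure D4:**
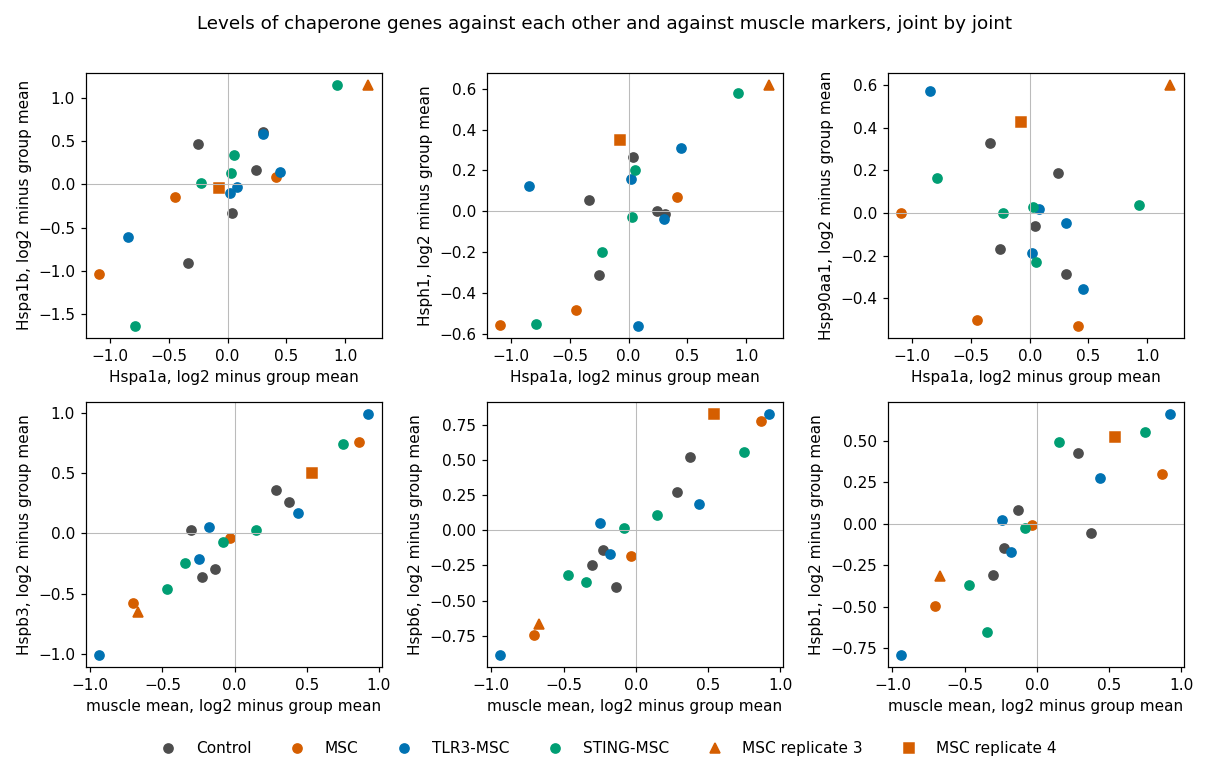
Each point is 1 of 20 joints, on log2 axes with the group mean subtracted, for Hspb3, Hspb6 and Hspb1 against the mean of 10 skeletal muscle markers (lower row) and for Hspa1b, Hsph1 and Hsp90aa1 against Hspa1a (upper row). Hspa1b and Hsph1 go up with Hspa1a, Hsp90aa1 does not, and the small heat shock genes go up with the muscle markers over the 20 joints together. No relation was computed within a single group. In control replicate 5, Hspb1 is at -0.056 while the muscle markers are at 0.38.

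The spread between joints of the same group was larger for the inducible than for the constitutive list by its median, while the lists overlapped, and it is given as a description. The SD between joints of 1 group had a median of 0.39 on the log2 scale over the 7 inducible genes and 0.13 over the 11 constitutive genes, beside 0.26 over all genes. Inducible genes ranged from 0.22 (Dnaja1) to 0.74 (Hspa1b), and constitutive ones from 0.065 (Hspa4) to 0.26 (Dnajc9, a histone chaperone). It was 0.56 over the small heat shock proteins, 0.21 over the mitochondrial and 0.16 over the ER genes. The largest values were those of Hspb9 (1.00), Hspa1b (0.74) and Hspa1a (0.61), of which Hspb9, at 1.83 to 32.6 counts per joint, has too few reads for counting error to be small. The smallest were those of Hspa4 (0.065) and Dnajc5 (0.069), a J-domain protein of secretory vesicles, with only 0.554% and 0.845% of all genes at or below them. Hspb7, with a mean of 4943 counts, and Dnajc5, with 4717, had like levels and SDs of 0.59 and 0.069. From the lowest to the highest of the 20 joints, Hspa1b spanned 14.9-fold, Hspa1a 7.0-fold and Hspa4 1.17-fold.

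**Figure D5:**
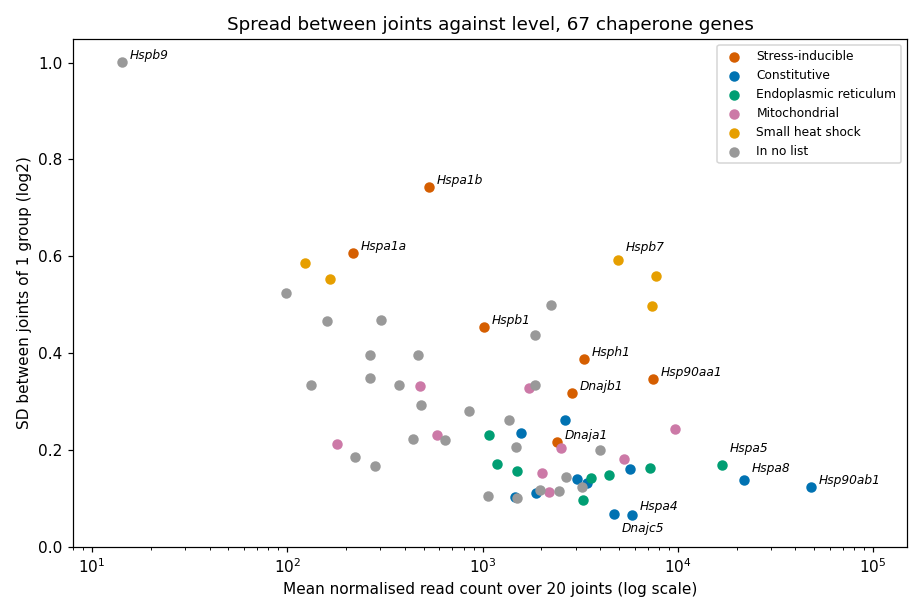
SD between joints of 1 group (log2 scale, vertical axis) against the mean normalised read count over 20 joints (horizontal log axis) for the 67 chaperone genes, coloured by list, with Hspb1 coloured as inducible. The small heat shock genes lie above all constitutive and ER genes, the inducible genes reach from within the constitutive range (Dnaja1) to far above it (Hspa1b), and Hspa4 and Dnajc5 are the lowest.

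The 27 genes in no list were Dnaja4, Dnajb2, Dnajb3, Dnajb4, Dnajb5, Dnajb12, Dnajb13, Dnajb14, Dnajc4, Dnajc6, Dnajc12, Dnajc13, Dnajc14, Dnajc16, Dnajc17, Dnajc18, Dnajc21, Dnajc24, Dnajc25, Dnajc27, Hspa1l, Hspa2, Hspa4l, Hspa12a, Hspa12b, Hspb9 and Hspb11. At the unadjusted threshold 1 of them differed in MSC against control (Dnajb12), 1 in TLR3-MSC against MSC (Dnajb14), 1 in STING-MSC against MSC (Dnajb12) and 1 in STING-MSC against TLR3-MSC (Dnajb14), and none in TLR3-MSC or STING-MSC against control. The share of all genes called was 8.55%, 3.88%, 4.94% and 2.57% in the first 4 of these comparisons, so 1 of 27 was near or below it. Dnajb12 and Dnajb14 are related J-domain proteins of the ER membrane that help to degrade misfolded proteins. Dnajb12 had normalised read counts of 1903, 2071, 1859.9, 2106 and 2175 in control joints, 1602, 1742, 1842, 1929 and 1833 in MSC joints, 1876, 2061, 2152, 1848 and 1935 in TLR3-MSC joints and 2359, 2279, 1802, 2148 and 1946 in STING-MSC joints. MSC joints were the lowest group and STING-MSC joints the highest, with 4 of 5 STING-MSC joints above all MSC joints. STING-MSC against MSC gave log2 fold change 0.23, SE 0.079, FDR = 0.84, exact permutation p = 0.0476, a call kept in every fit that left out 1 joint. MSC against control gave log2 fold change -0.18, SE 0.079, FDR = 0.543, exact permutation p = 0.0317, a call lost in 5 of 10 such fits (log2 fold changes of -0.21 to -0.14).

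Dnajb14 had normalised read counts of 1512, 1474, 1615, 1589 and 1284 in control joints, 1502, 1622, 1374, 1385 and 1354 in MSC joints, 1518, 1581, 1713, 1592 and 1659 in TLR3-MSC joints and 1400.4, 1396, 1590.2, 1402 and 1422 in STING-MSC joints. The TLR3-MSC joints were highest on average but overlapped both other cell groups, and STING-MSC replicate 3 stood apart from the other STING-MSC joints. It was higher in TLR3-MSC than in MSC joints (log2 fold change 0.16, SE 0.071, FDR = 0.978, exact permutation p = 0.0476) and lower in STING-MSC than in TLR3-MSC joints (log2 fold change -0.16, SE 0.071, FDR = 0.89, exact permutation p = 0.0238), and each call was lost in 6 of 10 fits that left out 1 joint. Hspa4l, an Hsp110 relative in no list and named after its values were seen, had 1184 to 1522 counts in control and 1209 to 2113 in MSC joints and just missed the threshold (log2 fold change 0.27, SE 0.13, FDR = 0.584, exact permutation p = 0.103). Dnajc25 was at 434 to 755 counts in control and 382 to 506 in STING-MSC joints (log2 fold change -0.33, SE 0.18, FDR = 0.472, exact permutation p = 0.0794), and it met the threshold without control replicate 1 (log2 fold change -0.40). Between STING-MSC and TLR3-MSC joints, Dnajb6 of the constitutive list, which keeps proteins from aggregating in muscle, gave log2 fold change 0.14, SE 0.076, FDR = 0.89, exact permutation p = 0.0238, and Dnajc16 gave log2 fold change 0.13, SE 0.074, FDR = 0.89, exact permutation p = 0.143. Dnajc16 met the threshold without TLR3-MSC replicate 3 (log2 fold change 0.17) or STING-MSC replicate 3 (log2 fold change 0.18).

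The partners of the chaperones were read from 4 further lists, in which no gene passed the FDR threshold in limma. Their counts at the unadjusted threshold stand beside 8.55% of all genes called in MSC, 3.58% in TLR3-MSC and 12.2% in STING-MSC against control, and 3.88% in TLR3-MSC against MSC, 4.94% in STING-MSC against MSC and 2.57% in STING-MSC against TLR3-MSC joints. Of 22 heat shock factors and co-chaperones, 1 was higher in MSC than in control joints at the unadjusted threshold, Chordc1, an Hsp90 co-chaperone (log2 fold change 0.26, SE 0.10, FDR = 0.464), and 1 in STING-MSC than in control joints, Fkbp5, an Hsp90 co-chaperone of steroid receptors (log2 fold change 0.31, SE 0.10, FDR = 0.31). Between TLR3-MSC and control joints and between STING-MSC and MSC joints 0 of 22 passed, 2 were lower in TLR3-MSC than in MSC joints (Chordc1 and Ahsa1, an Hsp90 activator named after its values were seen), and 1 was higher in STING-MSC than in TLR3-MSC joints (Fkbp5). Of 17 genes of the unfolded protein response, 1 was higher and 1 lower in MSC than in control joints, the ER chaperone partner Sdf2l1 (log2 fold change 0.41, SE 0.12, FDR = 0.303) and Sil1, which resets the Hspa5 cycle (log2 fold change -0.29, SE 0.12, FDR = 0.52). The same genes differed in STING-MSC joints, Sdf2l1 with log2 fold change 0.40, SE 0.12, FDR = 0.291 and Sil1 with log2 fold change -0.35, SE 0.12, FDR = 0.33, and in TLR3-MSC joints 1 of 17, Sdf2l1, was higher (log2 fold change 0.26, SE 0.12, FDR = 1). In the 3 comparisons between cell groups 0 of 17 passed. Of the 8 subunits of the CCT chaperonin, which folds actin and tubulin, 0 passed in any of the 6 comparisons, and its smallest p was that of Tcp1 in STING-MSC against TLR3-MSC joints (log2 fold change 0.11, SE 0.068, FDR = 0.89), followed by Cct7 there (log2 fold change 0.12, SE 0.082, FDR = 0.89).

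The 8 immediate-early genes, which respond within minutes to stress and tissue handling, were read beside the inducible chaperones. In MSC against control joints 1 of 8 was higher (Atf3, named after its values were seen) and the median log2 fold change was -0.0081, whereas in STING-MSC joints 4 of 8 were lower than in control (against 5.69% of all genes lower) and 6 of 8 lower than in MSC joints (against 2.17%). In TLR3-MSC joints 2 of 8 were lower than in control and 2 of 8 lower than in MSC joints, and between STING-MSC and TLR3-MSC joints 0 of 8 passed. Fos had 237 to 539 counts in STING-MSC, 665 to 1512 in control and 665 to 1704 in MSC joints (log2 fold change -1.54, SE 0.38, FDR = 0.274 for STING-MSC against control). Egr1 was likewise lower in STING-MSC than in control joints (log2 fold change -1.65, SE 0.38, FDR = 0.256), without overlap between these groups.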

How the data were processed

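Knee joints of 5 mice per group were sequenced as polyA RNA. The authors aligned reads to GRCm39 with STAR 2.7.3a, counted them per gene with HTSeq and deposited a signal table of counts divided by a median-ratio size factor per joint. Use of strand is not given in the sources used here. Whole reads came out for 99.8% to 99.9% of values (within 0.1 of a whole read; 100% below 1000) and gave the depth of each joint; edgeR on them called 15 genes at the FDR threshold in MSC against control. Groups and replicate numbers came from the labels. limma 3.58.1 (R 4.3.3, trend) was fitted to log2(value + 1) of all 14793 genes and 20 joints, with Benjamini-Hochberg FDR over all genes, and a minimum mean of 5 removed 0 genes. Calls were an unadjusted p of at most 0.05 and an FDR of at most 0.05, in place of the DESeq2 test of the study, since the values are not counts. Alternatives were pseudocounts of 0.5 and 5, a mean of at least 20, no filter, quantile normalization, edgeR 4.0.16 and DESeq2 1.42.0 run on the whole reads, a block for the replicate number, only the 2 groups compared, Hspa1a and Hspa1b summed, and each joint left out. The tests were tested on simulated data. The genes, lists and tests were chosen with earlier results of these data known. Named genes were 13 fixed chaperones, the 3 with the smallest p per comparison, the 3 with the largest spread, and the 2 partners with the smallest p per further list. Same-numbered joints were different mice, with residual correlations of -0.658 to 0.464, and were not treated as pairs.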

Additional observations from a re-analysis of the deposited data

Results flagged for a closer look

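Among 88 groups of 5 joints of named chaperones tested for a joint far from the others, 3 stood out, where about 1 in 20 would be by chance. Hspa5 was at 19995 normalised read counts in MSC replicate 3, above the other 4 MSC joints at 16642 to 17383. Dnajb14 was at 1590.2 in STING-MSC replicate 3, above the others at 1396 to 1422. Dnajc25 was at 506 in STING-MSC replicate 2, above the others at 382 to 415.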

How the results depend on the processing

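The count of chaperones past the unadjusted threshold in MSC against control joints was 8 and stayed between 6 and 10 with 1 joint left out, 7 with the replicate number as a block, and 4 with both MSC replicates 3 and 4 removed. At the FDR threshold it was 0 in all fits run except DESeq2, which called 2, and leaving out 1 joint gave 0 to 0 in all 6 comparisons and the F-test. Fitting only the 2 groups compared gave 1 for TLR3-MSC against control (0), 2 for STING-MSC against control (1), 1 for TLR3-MSC against MSC (4) and 2 for STING-MSC against TLR3-MSC (1), with the count of the report in parentheses. With the replicate block the counts were 0 for STING-MSC against control and 2 for TLR3-MSC against MSC; the same numbers are not pairs. Quantile normalization gave 2 for STING-MSC against TLR3-MSC, and removing both MSC replicates 3 and 4 gave 0 for TLR3-MSC against MSC. Leaving out 1 joint gave 0 to 2 for TLR3-MSC and for STING-MSC against control, 1 to 8 for TLR3-MSC against MSC, 4 to 7 for STING-MSC against MSC and 0 to 3 for STING-MSC against TLR3-MSC. The count for TLR3-MSC against control was 2 without control replicate 4 or TLR3-MSC replicate 3 and 1 without control replicate 3 or TLR3-MSC replicate 1. That for STING-MSC against control was 2 without control replicate 1 and 0 without control replicate 3 or 4 or STING-MSC replicate 1, 3 or 4. That for STING-MSC against TLR3-MSC was 3 without TLR3-MSC replicate 1, 2 without replicate 3 of either group, and 0 without TLR3-MSC replicate 5 or STING-MSC replicate 1, 2, 4 or 5. Log2 fold changes of MSC against control near 0 changed sign with both MSC replicates removed, to -0.16 for Hsp90aa1, -0.087 for Hsp90ab1 and -0.13 for Hspd1, and with 1 joint left out ranged over -0.037 to 0.049 for Hsp90ab1, -0.035 to 0.10 for Hsp90b1 and -0.034 to 0.12 for Hspd1. Where counts moved, the cause was not tested beyond the number of joints. Pseudocounts, the filters and the sum of Hspa1a and Hspa1b changed no call of a named gene.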

Other observations

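The epidermal markers differed most between joints, with sums from 19.2 to 22896 normalised read counts, and 3 of 6 were lower in STING-MSC than in TLR3-MSC joints at the unadjusted limma threshold, the comparison in which 1 of 67 chaperones passed. The high epidermal sums of the TLR3-MSC group were those of replicate 4 (22896) and replicate 3 (1569.8), and the other 3 TLR3-MSC joints had 109 to 169.8 beside 19.2 to 133 in STING-MSC joints.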
